A study of Homo sapiens with 2 samples.

Results

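The genes described here are 32 cytosolic and mitochondrial heat shock proteins and their partners, chosen by gene name from a list of chaperones and 2 heat shock transcription factors, out of 58735 genes in the count table. They comprise 11 heat-inducible cytosolic genes, 6 constitutive cytosolic genes, 8 subunits of the chaperonin CCT, 5 mitochondrial genes and the factors HSF1 and HSF2. The names came from a list drawn up with earlier results of these data known. RNA sequencing compared PLC8024, an established human hepatocellular carcinoma (HCC) cell line of epithelial morphology, also called Alexander cells, with and without a knockout of MAEL. MAEL (Maelstrom) is a cancer/testis antigen whose part in the stem-like properties of HCC cells the study examined. The MAEL WT library came from non-treated wildtype cells. The MAEL KO library came from cells given an sgRNA against MAEL with Cas9, which were sorted and grown as single clones per the study's methods, so that a difference of the clone and a difference of the genotype cannot be told apart. Whether the MAEL WT cells also passed through single-cell cloning is not given in the sources used here. Each condition had 1 library, so no difference below has a replicate check, no p-value is given, and every interval covers counting error alone. RNA was taken from whole cultures, where fewer cells of a type and less RNA per cell cannot be told apart.

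Heat shock proteins hold unfolded or newly made proteins and help them to fold. HSP70 binds short exposed stretches, J-domain proteins (DNAJ) deliver clients to it and speed its ATP cycle, HSP110 proteins (HSPH1, HSPA4) exchange its nucleotide, and HSP90 receives clients from it through the adaptor STIP1. CCT is a double-ring chamber of different but related subunits that folds actin and tubulin, and HSPD1 with its lid HSPE1 forms the corresponding chamber of the mitochondrial matrix. In stressed cells the transcription factor HSF1 binds heat shock elements, inverted repeats of the unit GAA, and raises a subset of these genes. HSP27, HSP70 and HSP90 are known for high levels in hepatocellular carcinoma.

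The upstream sequence of 9 members that carry such repeats is shown here, since members with like letters upstream differed in both directions between the libraries. Sequences are from RefSeq on GRCh38.p14, written 5' to 3' on the strand of the gene, and capitals mark every whole match to the letters GAANNTTC or TTCNNGAA (2 units facing each other), each of which reads the same on both strands. HSPA1A lies at chr6:31815293-31815463 (+), HSPA1B at chr6:31827488-31827734 (+), DNAJB1 at chr19:14518421-14518647 (-) and HSP90AB1 at chr6:44247693-44247865 (+). For HSPB8, chr12:119178832-119178861 (+), CHORDC1, chr11:90223084-90223113 (-), HSP90AA1, chr14:102087112-102087141 (-), HSPA8, chr11:123062171-123062200 (-), and HSPD1, chr2:197500061-197500090 (-), the 30 bases around the match are shown.
HSPA1A: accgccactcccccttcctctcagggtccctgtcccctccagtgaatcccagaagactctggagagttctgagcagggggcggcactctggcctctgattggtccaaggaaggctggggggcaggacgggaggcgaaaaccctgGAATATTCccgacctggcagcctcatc
HSPA1B: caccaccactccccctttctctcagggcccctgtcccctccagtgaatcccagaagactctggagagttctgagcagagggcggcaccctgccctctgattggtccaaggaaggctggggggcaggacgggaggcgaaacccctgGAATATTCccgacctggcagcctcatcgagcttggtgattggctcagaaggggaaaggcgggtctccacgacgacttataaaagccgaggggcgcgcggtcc
DNAJB1: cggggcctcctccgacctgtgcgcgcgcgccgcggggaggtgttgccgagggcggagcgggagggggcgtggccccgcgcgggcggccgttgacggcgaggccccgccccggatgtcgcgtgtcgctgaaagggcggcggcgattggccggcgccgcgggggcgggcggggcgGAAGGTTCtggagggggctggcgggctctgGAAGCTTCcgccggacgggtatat
HSP90AB1: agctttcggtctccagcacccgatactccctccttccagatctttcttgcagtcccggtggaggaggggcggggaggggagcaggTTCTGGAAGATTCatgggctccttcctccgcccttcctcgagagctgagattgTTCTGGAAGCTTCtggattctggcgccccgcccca
HSPB8: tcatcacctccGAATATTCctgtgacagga
CHORDC1: accgGAAAATTCGCGAAGGTTCCTGAAacg
HSP90AA1: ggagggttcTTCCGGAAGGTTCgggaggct
HSPA8: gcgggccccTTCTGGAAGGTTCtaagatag
HSPD1: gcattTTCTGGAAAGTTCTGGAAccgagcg
HSPA1A, HSPA1B and HSPB8, the 3 members lowest in MAEL KO relative to MAEL WT, held the same 8 letters GAATATTC, which are upstream of 102 of 27305 genes (0.374%) and of no other member searched. The stretches of HSPA1A and HSPA1B are nearly alike around the match, at -106 and -105, so these genes are not separate cases. The letters were compared with the fold changes known, and the sequences shown were picked in the same way. The most common match of the members, GAAGGTTC, was upstream of 6 of them, CHORDC1, DNAJB1, HSP90AA1, HSPA8, HSPB1 and TCP1, which lay on both sides of 0. It was upstream of 0.414% of genes. HSP90AB1, HSP90AA1, HSPA8 and HSPD1, all higher in MAEL KO, held overlapping matches that make 3 units in a row, and so did CHORDC1, which was lower.

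The letters were counted in the 250 bases before each RefSeq start of a gene. Of the 32 members, 30 were in the table of starts, and CCT6A and HSF1 were not. A match of 2 units was upstream of 15 of these 30 members in at least 1 of their start windows, against 14.0% of 27305 genes (11.6% of 35116 windows). A match of 3 units (GAANNTTCNNGAA or TTCNNGAANNTTC, each the reverse complement of the other, which contain the 2-unit letters) was upstream of 6 of 30 members, against 0.557% of genes (0.441% of windows). Heat-inducible genes held 2 units in 9 of 11 cases, constitutive genes in 3 of 6, CCT genes in 2 of 7 and mitochondrial genes in 1 of 5. The mitochondrial gene with matches is HSPD1, and its matches also lie upstream of the RefSeq start of HSPE1. They fall outside the 250 bases searched for HSPE1. The 6 members with 3 units were HSPD1, HSP90AA1, HSP90AB1, HSPA8, DNAJB6 and CHORDC1. A match is a description of the letters in this window and no measure of binding.

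**Figure D1:**
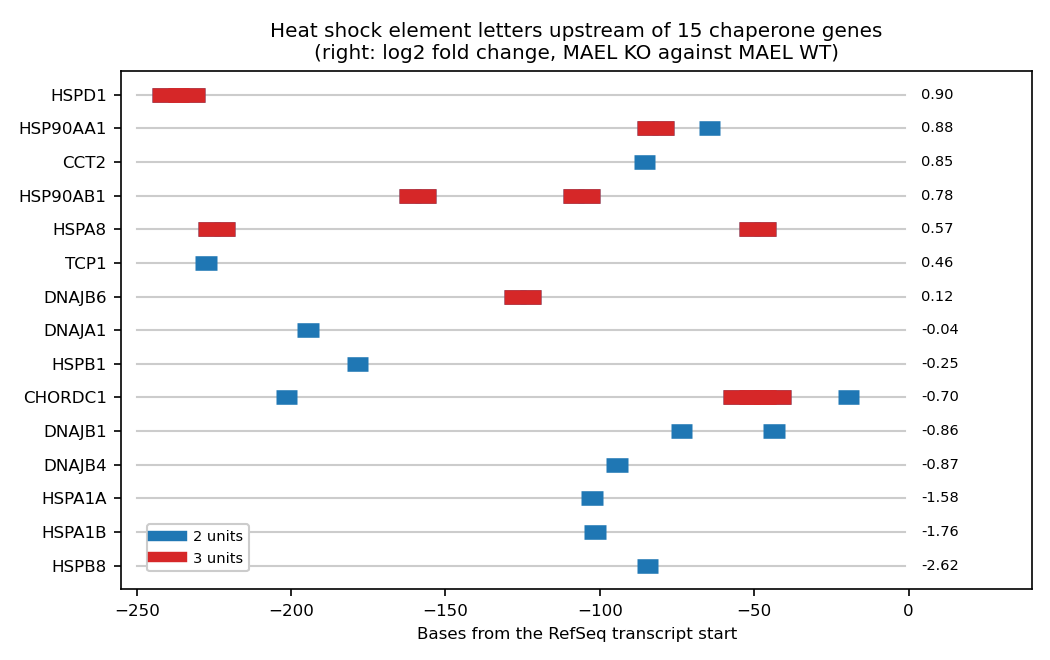
Positions of matches to 2 units (blue) and 3 units (red) of the heat shock element letters, in bases before the RefSeq transcript start, for the 15 members with a match, ordered by log2 fold change (printed at right). Genes above 0 and genes below 0 both hold matches, with HSPD1 at 0.90 at the top and HSPB8 at -2.62 at the bottom.

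Depth was alike in both libraries, with 19904136 counts for MAEL WT and 20833332 for MAEL KO. MAEL itself had 1 and 0 counts, so its RNA was at or under the floor of 3 counts in both libraries and could not check the labels. The study chose PLC8024 as the line with the highest MAEL expression, shown by protein blot. The MAEL WT library, with 1 count, thus held almost no MAEL RNA, and the reason for this contrast was not tested. Of 10 hepatocyte markers, all were detected and all were higher in MAEL KO, with a median log2 fold change of 1.60, and the widest was ALB (albumin) with 59 counts in MAEL WT and 8550 in MAEL KO. Of 14 markers of immune, endothelial and stromal cells, 5 passed the filter below and 2 were at 0 counts in both libraries, and their summed FPKM was 3.47 and 4.22. The 15 proliferation genes were all higher in MAEL KO, with log2 fold changes from 1.90 to 3.40. Above 1 lay 10.2% of the genes that passed the filter below. Their summed FPKM over the 15 genes was 190 in MAEL WT and 899 in MAEL KO. The study, by contrast, reported slower proliferation and smaller xenograft tumors of its knockout cells, and the reason for this contrast was not tested. The part of the marker and proliferation gene differences in the chaperone values was not tested either.

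Fold changes are given as log2 of MAEL KO over MAEL WT, with counts scaled by TMM, a method that sets the bulk of genes level between libraries, and with 1 added. Genes with at least 10 counts in 1 library or more were kept, and all 32 members passed. Counts are raw reads per gene, and FPKM values (fragments scaled to gene length, as deposited) are used to compare one gene with another. Between libraries the deposited FPKM values followed the size factors of DESeq2, another scaling method, and not total counts. For HSP90AB1 the log2 fold change was 0.771 by FPKM, 0.771 by DESeq2 size factors and 0.499 by total counts. Each interval is an exact 95% Clopper-Pearson interval for the MAEL KO portion of both libraries' counts of that gene, turned into a fold change.

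All constitutive and CCT chaperones were higher in the MAEL KO library, all but 1 of the heat-inducible genes were lower, and the mitochondrial genes lay on both sides of 0. Of the 32 members, 19 lay above 0, against 48.0% of the 17887 genes kept and 54.2% of the 12023 genes with at least 100 counts. Their median was 0.45, beside -0.04 for all genes kept. Past 1 in either direction lay 4 members, against 26.7% of genes kept and 18.4% of those with at least 100 counts. Above 1 lay HSPE1, against 10.2% of genes kept, and below -1 lay HSPA1A, HSPA1B and HSPB8, against 16.5%. Past the larger threshold of 2 lay HSPB8 alone, against 7.80% of genes kept and 3.89% of those with at least 100 counts. Counting intervals excluded 0 for all members but DNAJA1.

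**Figure D2:**
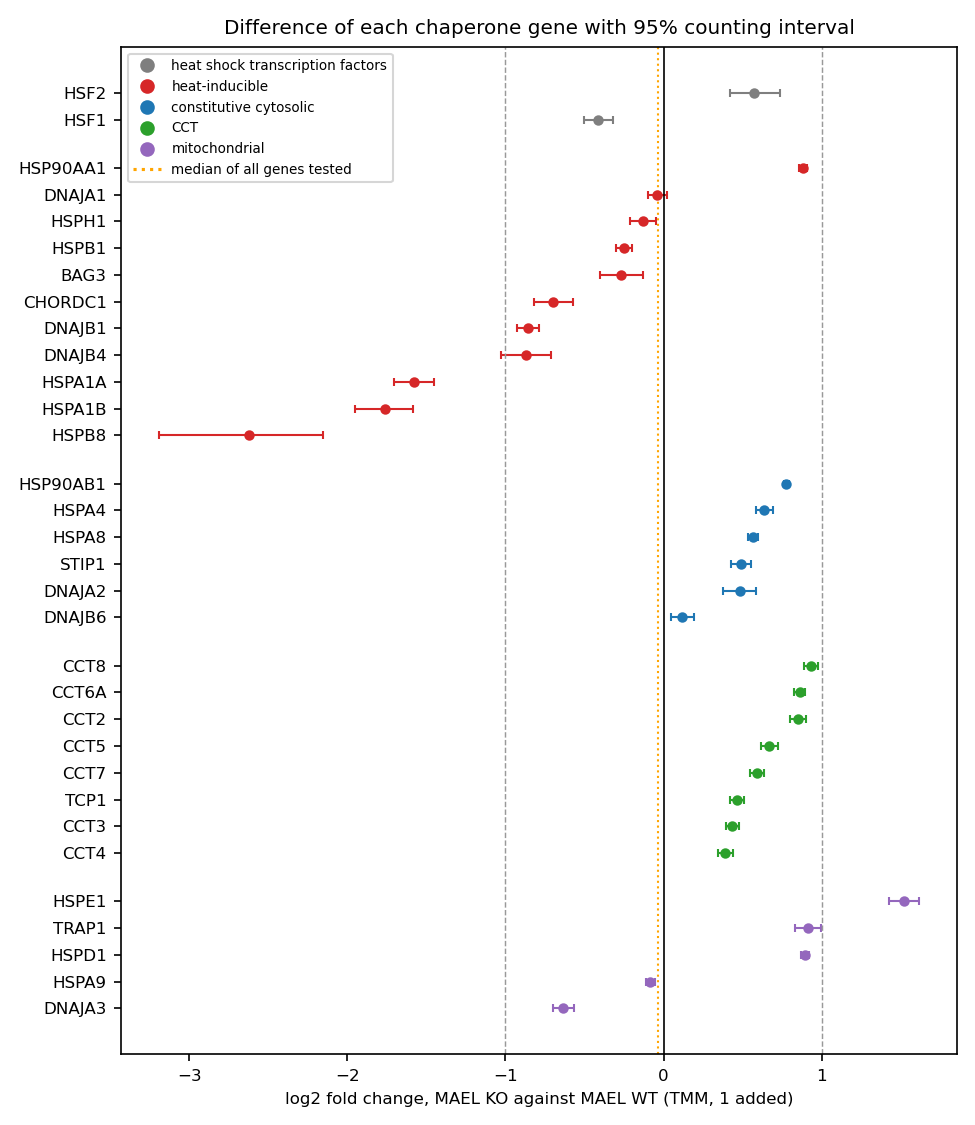
Log2 fold change of each member, MAEL KO against MAEL WT, with the exact 95% counting interval as a bar and colours for the groups. The 8 CCT subunits and the 6 constitutive genes lie above 0, and 10 of the 11 heat-inducible genes lie below 0, with HSP90AA1 as the exception.

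HSF1, the main activator of the heat shock response, was lower in MAEL KO. It had 2525 counts in MAEL WT and 1639 in MAEL KO (FPKM 21.8 and 16.3), a log2 fold change of -0.41 (95% interval, -0.50 to -0.32). HSF2, a related factor active in development and proteasome stress, was higher, with 584 and 752 counts (FPKM 9.88 and 14.7) and a log2 fold change of 0.57 (0.42 to 0.73). RNA levels carry no measure of the trimer formation and phosphorylation through which HSF1 becomes active.

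For the 11 heat-inducible genes the median log2 fold change was -0.70, and 10 of 11 lay below 0, beside 52.0% of genes kept and 45.8% of those with at least 100 counts. HSPA1A and HSPA1B, neighbouring genes on chromosome 6 that encode the stress-inducible HSP70, were the clearest of the abundant ones. HSPA1A (chr6:31815464-31817946) had 2273 counts in MAEL WT and 658 in MAEL KO, FPKM 41.9 and 14.0, and a log2 fold change of -1.58 (-1.71 to -1.45). HSPA1B (chr6:31827735-31830255) had 1227 and 312 counts, FPKM 22.3 and 6.53, and a log2 fold change of -1.76 (-1.95 to -1.58). Both were lower in MAEL KO by more than 2-fold, but their reads are hard to assign, since 71.3% of the 50-base stretches of HSPA1A occur also in HSPA1B. Summed as 1 gene they had 3500 and 970 counts and a log2 fold change of -1.64 (-1.75 to -1.54). Their ratio to each other in FPKM was 1.88 (1.75 to 2.02) in MAEL WT and 2.14 (1.87 to 2.46) in MAEL KO, with overlapping intervals. In addition, 36.5% of the exon bases of HSPA1B are also annotated to the gene AL671762.1.

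HSPB8, a small heat shock protein that works with BAG3 to pass misfolded clients to autophagy, had the largest difference of the members. It had 269 counts in MAEL WT and 37 in MAEL KO (FPKM 4.30 and 0.682), with a log2 fold change of -2.62 (-3.19 to -2.15). BAG3, its partner and a nucleotide exchange factor of HSP70, was lower by less, with 1066 and 765 counts (FPKM 17.7 and 14.7) and -0.27 (-0.40 to -0.13). HSPB1 (HSP27), the abundant small heat shock protein, had 7531 and 5481 counts (FPKM 211 and 177) and -0.25 (-0.30 to -0.20). The 3 genes were thus all lower in MAEL KO, and their intervals separate HSPB8 from the other two.

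Among J-domain partners of HSP70, DNAJB1 (HSP40), which helps HSP70 to dissolve aggregates, had 5235 counts in MAEL WT and 2493 in MAEL KO (FPKM 65.2 and 35.8) and a log2 fold change of -0.86 (-0.93 to -0.79). DNAJB4, a close relative of it, had 999 and 473 counts (FPKM 12.1 and 6.60) and -0.87 (-1.03 to -0.71). These values coincided within their intervals. DNAJA1, which also serves mitochondrial import, did not differ beyond counting error, with 4996 and 4199 counts (FPKM 83.7 and 81.1) and -0.04 (-0.10 to 0.02). HSPH1 (HSP105), the inducible nucleotide exchange factor, was close to it, with 2744 and 2163 counts (FPKM 14.95 and 13.6) and -0.13 (-0.21 to -0.05).

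HSP90AA1, the inducible cytosolic HSP90, was the one heat-inducible member above 0. It had 22783 counts in MAEL WT and 36283 in MAEL KO, FPKM 198 and 365, and a log2 fold change of 0.88 (0.86 to 0.91). CHORDC1, an HSP90-binding cochaperone, went the other way, with 1583 and 844 counts (FPKM 6.79 and 4.18) and -0.70 (-0.82 to -0.58). Both hold the 3-unit letters shown above.

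**Figure D3:**
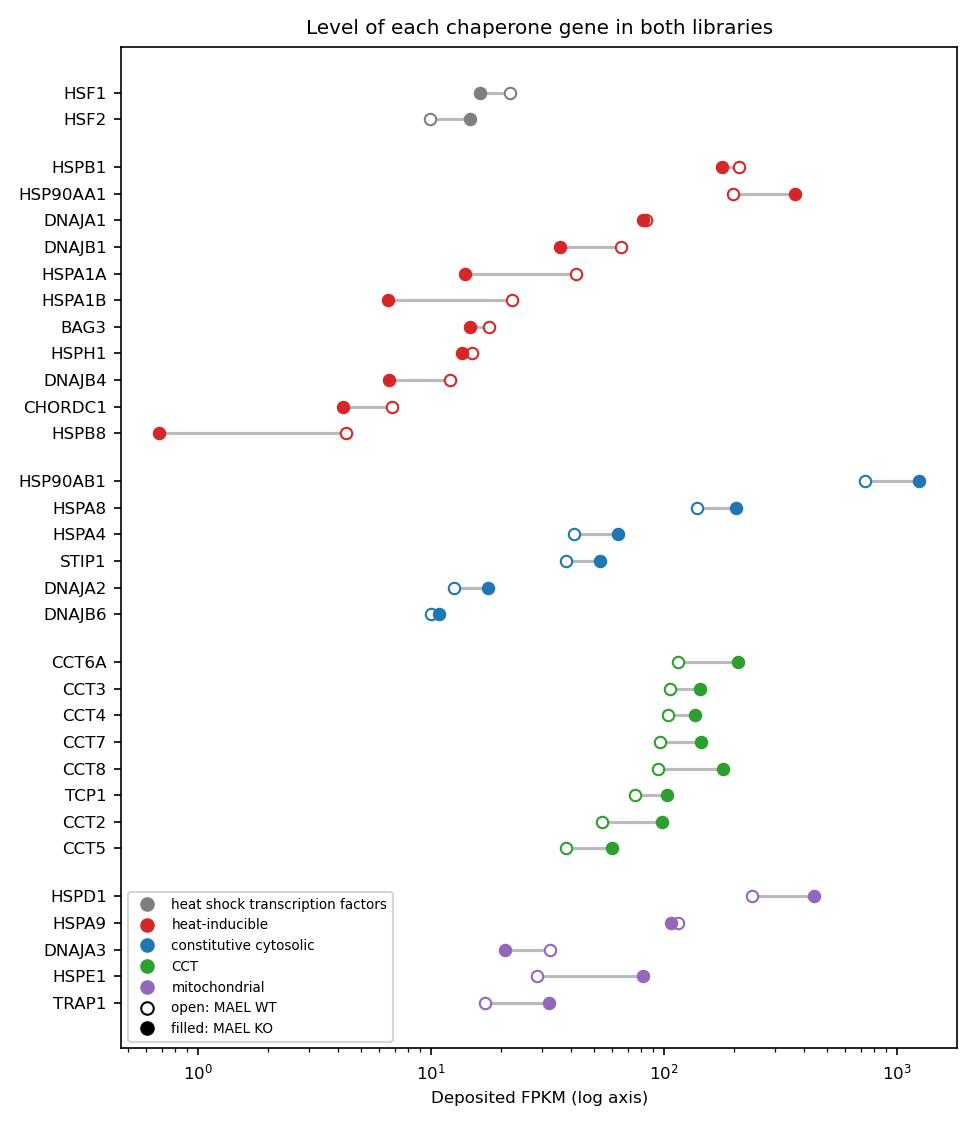
Deposited FPKM of each member on a log axis, with open circles for MAEL WT, filled circles for MAEL KO and 1 colour per group. HSP90AB1 has the highest level in both libraries (728 and 1242) and HSPB8 the lowest (4.30 and 0.682).

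All 6 constitutive cytosolic genes were higher in MAEL KO, with a median log2 fold change of 0.53, beside the 48.0% of all genes kept that lay above 0. HSP90AB1, the constitutive HSP90 and the highest member in both libraries, had 47445 counts in MAEL WT and 70193 in MAEL KO, FPKM 728 and 1242, and a log2 fold change of 0.78 (0.76 to 0.79). HSPA8 (HSC70), the constitutive HSP70 of clathrin uncoating and everyday folding, had 14676 and 18771 counts (FPKM 138 and 204) and 0.57 (0.53 to 0.60). HSPA4, its constitutive nucleotide exchange factor, had 4616 and 6205 counts (FPKM 41.0 and 63.5) and 0.64 (0.58 to 0.69). Of these core genes of the HSP70 and HSP90 cycle, HSP90AB1 lay above the other two, whose intervals overlapped.

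STIP1 (HOP), the adaptor that passes clients from HSP70 to HSP90, had 3884 and 4712 counts (FPKM 38.1 and 53.4) and a log2 fold change of 0.49 (0.43 to 0.55). DNAJA2, a general J-domain protein of HSPA8, had 1396 and 1684 counts (FPKM 12.6 and 17.5) and 0.48 (0.38 to 0.58). DNAJB6, a suppressor of polyglutamine aggregation, was the lowest of the group, with 3271 and 3069 counts (FPKM 9.98 and 10.8) and 0.12 (0.05 to 0.19), and its sign turned to -0.16 when total counts took the place of TMM.

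The balance between inducible and constitutive paralogs differed for HSP70 and little for HSP90. These ratios of FPKM within a library do not depend on scaling between libraries. HSPA1A plus HSPA1B against HSPA8 was 0.463 (0.446 to 0.481) in MAEL WT and 0.1004 (0.0941 to 0.107) in MAEL KO, 4.61-fold lower. HSP90AA1 against HSP90AB1 was 0.273 (0.268 to 0.277) and 0.294 (0.290 to 0.297). Both intervals of each pair were apart, so the inducible HSP70 RNA made up a smaller part of the pair in MAEL KO and the inducible HSP90 RNA a slightly larger one. The levels of these ratios rest on the gene length listed in the table: by the longest coding sequence they were 0.240 and 0.0521 for HSP70 and 0.407 and 0.438 for HSP90. Reads of HSPA1A and HSPA1B are also hard to assign, as given above, so the level of the HSP70 ratio is less certain by either length.

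**Figure D4:**
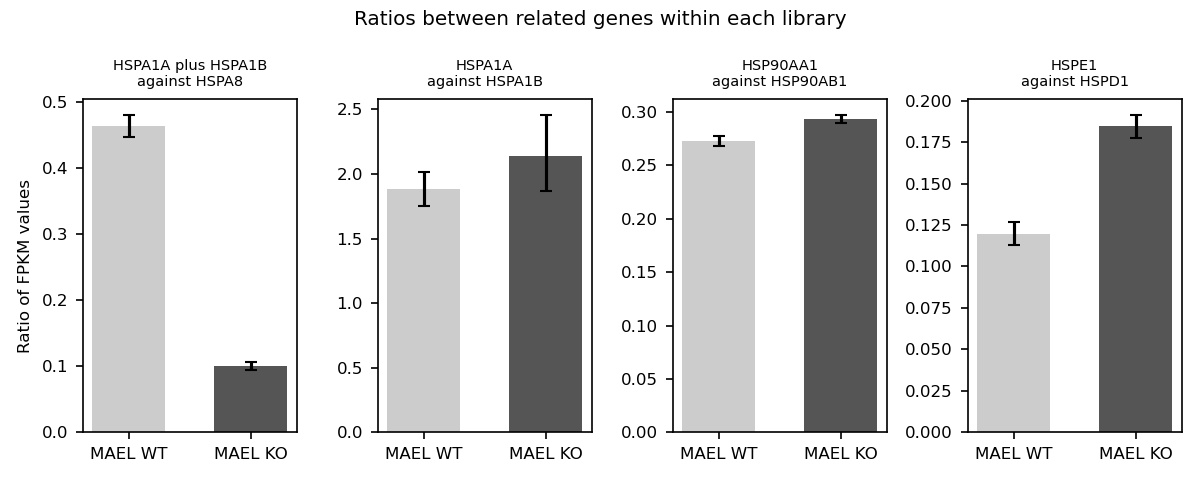
FPKM ratios of paralogs and partners within MAEL WT and MAEL KO, with exact 95% counting intervals. HSPA1A plus HSPA1B against HSPA8 is 0.463 in MAEL WT and 0.1004 in MAEL KO, whereas HSPE1 against HSPD1 is 0.120 and 0.184.

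All 8 CCT subunits were higher in MAEL KO, with a median log2 fold change of 0.63. Above 0 lay 48.0% of genes kept and 54.2% of those with at least 100 counts. Their values formed a graded series from 0.39 to 0.93. CCT8 (theta) had 6879 counts in MAEL WT and 11350 in MAEL KO (FPKM 94.1 and 179) and a log2 fold change of 0.93 (0.89 to 0.98). CCT6A (zeta) had 9758 and 15310 counts (FPKM 114 and 207) and 0.86 (0.82 to 0.90), and CCT2 (beta) had 5140 and 8006 counts (FPKM 54.4 and 97.7) and 0.85 (0.80 to 0.90). These 3 subunits had overlapping intervals.

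CCT5 (epsilon) followed with 4841 and 6651 counts (FPKM 37.9 and 60.1) and a log2 fold change of 0.67 (0.61 to 0.72), and CCT7 (eta) with 7541 and 9831 counts (FPKM 96.0 and 144) and 0.59 (0.55 to 0.64). TCP1 (alpha) had 8100 and 9653 counts (FPKM 75.1 and 103) and 0.46 (0.42 to 0.51), close to CCT3 (gamma) with 9293 and 10857 counts (FPKM 106 and 143) and 0.43 (0.39 to 0.47) and to CCT4 (delta) with 6412 and 7267 counts (FPKM 104 and 135) and 0.39 (0.34 to 0.44). The last 3 had overlapping intervals, which lay below those of CCT8, CCT6A and CCT2. Since the subunits sit in the ring in equal numbers, their RNA levels were set beside each other per length. In MAEL WT they ran from 37.9 FPKM for CCT5 to 114 for CCT6A, a 3.02-fold spread with a coefficient of variation of 31.7%, and in MAEL KO from 60.1 to 207, a 3.45-fold spread with 34.9%. By coding length the spread was 2.05-fold and 2.35-fold. The RNA of the subunits was thus no more even in MAEL KO than in MAEL WT. The FPKM of CCT5 uses exons of which 30.1% are also annotated to another gene, AC012640.4.

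Among the 5 mitochondrial genes, 3 were higher in MAEL KO and 2 lower, a share near the 54.2% of genes with at least 100 counts that lay above 0, and the median was 0.90. HSPD1 (HSP60), the chamber, had 22096 counts in MAEL WT and 35538 in MAEL KO (FPKM 238 and 442) and a log2 fold change of 0.90 (0.87 to 0.92). HSPE1 (HSP10), the lid, whose gene starts next to that of HSPD1 on the opposite strand of chromosome 2, had 1233 and 3053 counts (FPKM 28.5 and 81.5) and 1.52 (1.42 to 1.61), the largest increase of the members. HSPE1 against HSPD1 in FPKM was 0.120 (0.113 to 0.127) in MAEL WT and 0.184 (0.178 to 0.191) in MAEL KO, 1.54-fold higher, and 0.313 and 0.483 by coding length. The count of HSPE1 is less certain, because 23.9% of its exon bases are shared with HSPD1 or the readthrough gene HSPE1-MOB4.

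TRAP1, the mitochondrial HSP90, had 1959 and 3190 counts (FPKM 17.1 and 32.2) and a log2 fold change of 0.91 (0.83 to 1.00). Its exons overlap those of DNASE1 over 29.3% of their bases, and DNASE1 itself had 373 and 166 counts. HSPA9 (mortalin), the mitochondrial HSP70 that pulls proteins through the inner membrane, stood near level with 20641 and 16840 counts (FPKM 114 and 108) and -0.08 (-0.11 to -0.05). DNAJA3 (TID1), a J-domain protein of HSPA9, was lower, with 4991 and 2780 counts (FPKM 32.3 and 20.7) and -0.63 (-0.70 to -0.57). The folding chamber and mitochondrial HSP90 were thus higher in MAEL KO, while HSPA9 was near level and DNAJA3 lower. Further mitochondrial chaperone partners went both ways. GRPEL1 had 1270 and 1604 counts (0.55), and GRPEL2 had 1387 and 821 (-0.55).

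The order of the members by FPKM changed with these differences. HSP90AB1 and HSPD1 ranked 1 and 2 in both libraries, HSPA8 stayed at 5, and HSPB8 was last. HSPB1 went from 3 in MAEL WT to 7 in MAEL KO, HSPA1A from 16 to 26 and HSPA1B from 22 to 30, while CCT8 went from 11 to 6 and HSPE1 from 21 to 14. Reads of several members could also be drawn to processed copies or neighbours: 18.4% of the 50-base stretches of HSPD1, 16.6% of those of HSP90AB1, 14.0% of those of HSP90AA1 and 11.8% of those of TCP1 occur in another gene. In all, the members took 1.196% of the counts in MAEL WT (237987) and 1.445% in MAEL KO (301059).

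Other genes of the chaperone network lay on both sides of 0. The remaining HSP70 and J-domain genes, 27 gene IDs, had their median log2 fold change at 0.13, 16 above 0, and this median turned negative (-0.15) with total counts. At its lower end lay HSPA6, the strictly stress-inducible HSP70, with 17 counts in MAEL WT and 2 in MAEL KO (-2.42, interval -6.03 to -0.80). DNAJA4 had 44 and 12 counts (-1.59), and HSPA1L, next to HSPA1A on chromosome 6, had 251 and 72 (-1.58). The upper end held 1 gene ID of HSPA14 with 320 and 731 counts (1.40) and DNAJC9 with 431 and 755 (1.02). The other gene ID of HSPA14 had 565 and 583 counts (0.26). HSP70 genes of this list thus lay on both sides of 0. Cochaperones of HSP70 and HSP90 had a median of 0.29, which fell to 0.013 with total counts. Of these 22 genes, 15 lay above 0, against 48.0% of genes kept and 54.2% of those with at least 100 counts. None lay past 1 in either direction, against 26.7% and 18.4%. FKBP5, an HSP90-binding prolyl isomerase, was highest with 1212 and 2084 counts (0.99), and PTGES3 (p23), which steadies the closed HSP90, had 3895 and 5634 (0.74). Of 8 other small heat shock proteins 2 passed the filter, HSPB9 with 24 and 8 counts and HSPB11, a ciliary transport protein, with 484 and 854.

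Partners and clients of CCT were apart from each other. Prefoldin subunits, phosducin-like proteins and tubulin cofactors, which act beside CCT, had a median log2 fold change of 0.16, which turned to -0.11 with total counts, and PFDN2 was lowest with 3250 and 1452 counts (-0.95). Actins and tubulins, the main CCT clients, were all 13 above 0, against 48.0% of genes kept and 54.2% of those with at least 100 counts. The counting intervals of 11 lay wholly above 0. Their median was 1.32, or 1.04 with total counts, and 8 lay above 1, against 10.2% of genes kept. TUBB4B had 2153 counts in MAEL WT and 7955 in MAEL KO (2.10) and TUBA1B 3249 and 11791 (2.07). Mitochondrial partners and proteases had a median of -0.09, with 8 of 19 above 0. AFG3L2, a subunit of an inner membrane protease, was highest at 0.89. PAM16, which holds a J-domain partner of HSPA9 other than DNAJA3 in check, was lowest with 223 and 85 counts (-1.17).

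The 8 other genes known to respond to HSF1 were split, 4 above and 4 below 0, with a median of -0.39, and HSPA6 is on this list too. SQSTM1 (p62), an autophagy receptor, had 55582 and 24697 counts (-0.96), and MRPL18, a mitochondrial ribosomal protein, 1861 and 1947 (0.28). Chaperones of the endoplasmic reticulum had a median of 0.02, with 8 of 15 above 0 and a median of -0.25 with total counts. HSPA5 (BiP), the HSP70 of that compartment, had 63389 and 27544 counts (-0.99), so it lay below 0 while cytosolic HSPA8 lay above it. Subunits of the 20S proteasome, which degrades proteins that are not refolded, were all 14 above 0. That compares with 48.0% of genes kept and 54.2% of those with at least 100 counts. The counting intervals of 13 lay wholly above 0. Their median was 0.56, near the CCT median of 0.63, and with total counts these medians were 0.28 and 0.35.

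**Figure D5:**
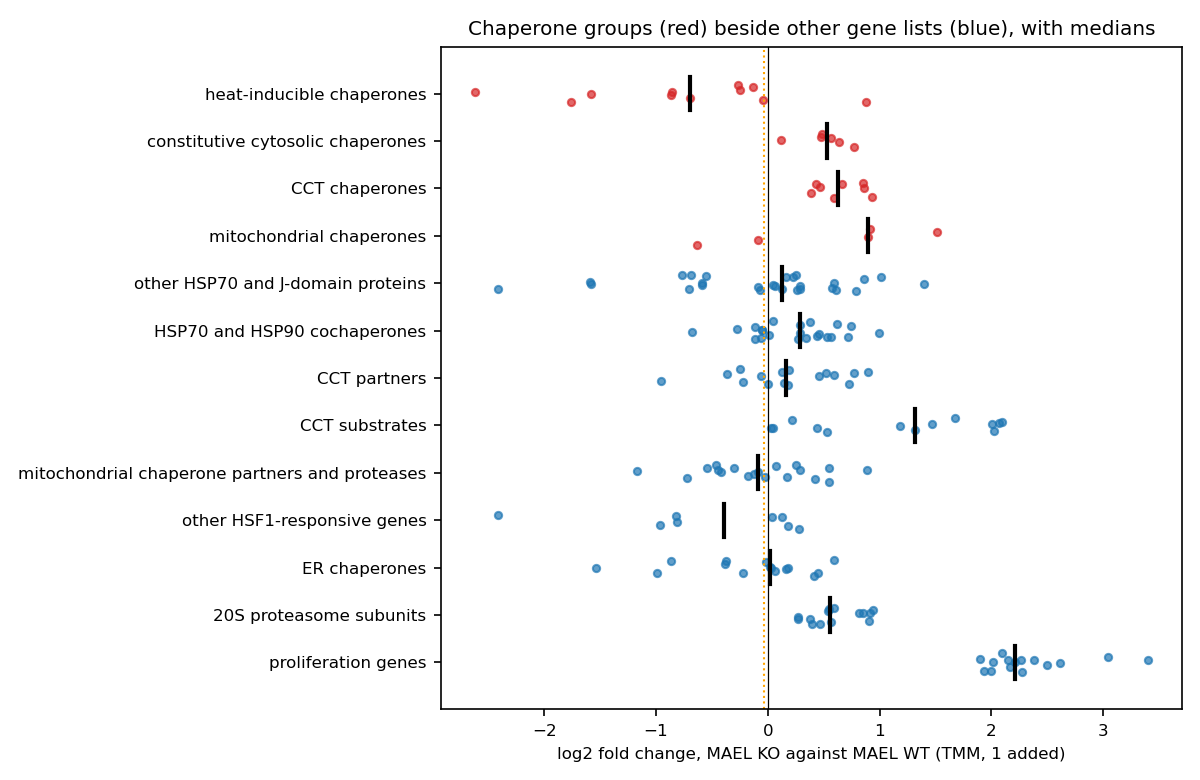
Log2 fold change of every tested gene in 4 groups of members (red) and 9 other gene lists (blue), with black bars for the medians and a dotted line at the median of all genes kept (-0.04). Of the medians drawn, that of the heat-inducible members (-0.70) is the lowest and that of the proliferation genes (2.21) the highest.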

How the data were processed

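RNA of 1 MAEL WT and 1 MAEL KO culture of PLC8024 cells was sequenced, and the authors deposited whole-number read counts per gene, not normalized, and FPKM values. The submitters' processing notes name HISAT2 2.0.5, featureCounts 1.5.0-p3 and hg19, but the positions of 58690 of 58735 gene IDs in the table equal those of GENCODE 29 on GRCh38. Whether counting used strand is not given in the sources used here. The value columns are headed PLC5WT and PLC5KO and were matched to the samples by genotype. All sample columns were used.

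At these depths 3 counts, taken as the floor, equal 0.1507 CPM in MAEL WT and 0.144 in MAEL KO. Reads carried no molecular identifiers, so intervals and the floor cover counting error only. Mitochondrial genes took 4.423% and 4.955% of counts. Counts were scaled by TMM in edgeR 4.0.16 (factors 1.10 and 0.909) with R 4.3.3, and DESeq2 1.42.0 gave alternative size factors. Fold changes and exact intervals (95%) were computed with Python 3.11.15, pandas 2.3.3, NumPy 2.4.6 and SciPy 1.17.1. No test was run, since a single library of each genotype gives no replicate error. The log2 threshold of 2 is that of the study's methods, and 1 was used beside it. On simulated counts for 17437 genes, 200 of 200 changed genes were recovered and 12 of 17237 unchanged genes passed 2. The simulated counts held counting error alone, and the changes were larger than the threshold and placed in well-counted genes. Recovery was thus set in advance and checks the computation only. The 12 genes give no rate of false calls for libraries that differ beyond counting error.

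The members and all lists were chosen with earlier results of these data known, so their directions are no independent support. Genes named are all members, up to 3 genes at each end of each companion list, MAEL, genes overlapping a member and cell type markers. Upstream sequences came from RefSeq (GRCh38.p14).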

Additional observations from a re-analysis of the deposited data

How the results depend on the processing

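The values were recomputed with total counts, with DESeq2 size factors, with deposited FPKM values as a ratio, with 0.1 or 5 added, without a filter, with at least 100 counts, and protein-coding genes alone. Of 256 values of the members under them, 35 moved beyond the counting interval and 1 changed sign. Total counts accounted for 31 of these, so 31 of the 32 members left their interval under that scaling. Protein-coding genes alone accounted for 5, and every other setting for 0. The filter settings cannot change the value of a member, and the FPKM ratio nearly repeated the DESeq2 size factors. With total counts the median of all genes moved from -0.04 to -0.31, and 34.6% of genes lay above 0. The medians then became 0.17 for all members, -0.97 for heat-inducible, 0.25 for constitutive, 0.35 for CCT and 0.62 for mitochondrial members, 2 members lay past 2 and 5 below -1. DNAJB6 turned to -0.16 and the median of CCT partners to -0.11. With protein-coding genes alone the mitochondrial median was 0.86, and with HSPA1A and HSPA1B summed the heat-inducible median was -0.48. The median of other HSF1-responsive genes turned to 0.034 at 100 counts or more, and that of markers of other cell types to -0.28 without a filter. The cause of these shifts was not tested. The 11 members whose whole gene span no other listed gene overlaps, with HSPA1A and HSPA1B left out and processed copies elsewhere not considered, had a median of 0.48, with 7 above 0.

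No paired analysis was possible because each condition had 1 library, and leaving out a library would leave no comparison. Protein length was not run as an alternative for the ratios, and the coding length used in its place was chosen after seeing the data. Depth limits HSPB8, which had the widest interval of the members (37 counts in MAEL KO), and of the other genes HSPA6 (2 counts) and HSPB9 (8 counts).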
